A study of Mus musculus with 3 samples.

Results

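The genes of the collagen chains were followed through 3 mouse cultures of a cardiac lineage that were profiled cell by cell. Members were all genes whose symbol is Col, a number, a and a number with nothing after it, and 43 of the 27886 genes listed in any of the 3 count tables met that rule. The tables listed 22 of them in mouse embryonic stem cells (mESC), 38 in cardiac precursor cell cultures (CPCC) and 41 in cardiac bodies (CB), and 20 were listed in all 3. By class they were 11 fibrillar, 6 basement membrane, 6 beaded and 20 other chains. The tables hold only genes whose highest value in a cell is at least 1, so a chain that is not listed has no value and was not set to 0.

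All cells were male F1 C57BL/6 x CAST/EiJ, from embryonic stem cell clones that the study derived from blastocysts. The mESC were kept in 2i medium, the CPCC were obtained from embryoid bodies formed with ascorbic acid and then passaged in a medium with EGF and Fgf2, and the CB were rhythmically beating aggregates grown with ascorbic acid until they were picked. Full-length cDNA of 215 mESC, 175 CPCC and 232 CB cells was made on Fluidigm C1 chips, which isolate single cells in small chambers, and the cells came in 3, 2 and 3 library pools. There was 1 sample per culture, and the sources do not tie pools to clones, so differences between cultures have no replicate check and no test, and pools are given as parts of a sample.

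Collagens are secreted proteins made of chains that wind around each other into a rope-like helix. The fibrillar types I, III, V and XI build the tensile fibres of connective tissue, type IV forms the mesh of basement membranes under epithelia and around vessels and muscle cells, and type VI makes beaded filaments around cells. In the heart most fibrillar collagen is made by fibroblasts, whereas cardiomyocytes, endothelial cells and epithelia contribute to basement membranes.

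The promoters of 4 chains are shown because their genes led the fibrillar and basement membrane classes in the results that follow, and because Col4a1 and Col4a2 lie head to head. The RefSeq table (GRCm38.p6) held a window of 250 bases before to 50 after the start for 34 of the 43 members. Col1a2 (chr6:4505368-4505667) and Col3a1 (chr1:45311288-45311587) are on the plus strand, Col4a1 (chr8:11312777-11313076) is on the minus strand and Col4a2 (chr8:11312555-11312854) is on the plus strand. The RefSeq start of Col1a2 lies inside the gene span that the GENCODE annotation gives, so its window does not precede the first annotated start, whereas the starts of the other 3 are the same in both. Each is written 5′ to 3′ in the direction of its gene, and capitals mark the word CCAAT, the word GGGCGG and the word TATAAA on either strand.
Col1a2: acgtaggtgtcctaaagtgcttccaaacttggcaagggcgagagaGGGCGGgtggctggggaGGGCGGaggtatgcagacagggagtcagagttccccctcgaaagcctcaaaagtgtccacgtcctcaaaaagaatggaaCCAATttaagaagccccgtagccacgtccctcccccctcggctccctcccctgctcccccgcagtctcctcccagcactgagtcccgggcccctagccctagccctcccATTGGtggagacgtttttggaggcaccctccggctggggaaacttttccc
Col3a1: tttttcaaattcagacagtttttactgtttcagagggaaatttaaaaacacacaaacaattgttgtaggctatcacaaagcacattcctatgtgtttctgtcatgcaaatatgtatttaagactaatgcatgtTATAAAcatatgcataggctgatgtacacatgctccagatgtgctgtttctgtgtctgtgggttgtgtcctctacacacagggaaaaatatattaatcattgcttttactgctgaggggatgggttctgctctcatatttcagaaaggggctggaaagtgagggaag
Col4a1: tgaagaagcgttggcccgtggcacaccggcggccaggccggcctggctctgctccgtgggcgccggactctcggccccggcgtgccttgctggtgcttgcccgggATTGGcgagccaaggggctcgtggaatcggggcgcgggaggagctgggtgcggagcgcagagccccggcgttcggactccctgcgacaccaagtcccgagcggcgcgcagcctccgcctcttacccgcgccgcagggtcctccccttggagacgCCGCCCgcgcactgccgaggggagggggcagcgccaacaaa
Col4a2: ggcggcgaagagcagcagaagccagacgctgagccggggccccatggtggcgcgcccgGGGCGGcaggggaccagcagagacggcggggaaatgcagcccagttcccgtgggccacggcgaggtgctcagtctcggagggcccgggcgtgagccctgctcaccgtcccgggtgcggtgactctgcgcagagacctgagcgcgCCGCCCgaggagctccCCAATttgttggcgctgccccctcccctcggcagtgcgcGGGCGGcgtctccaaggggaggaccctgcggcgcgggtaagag

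The starts of Col4a1 and Col4a2 were 21 bases apart, and their windows shared 78 bases, chr8:11312777-11312854. Both windows were rich in G and C, at 74.0% and 73.7%, while the Col3a1 window had 37.7% and the Col1a2 window 61.0%. The median was 52.7% over all 32851 windows and 60.0% over the 37 windows of collagen chains. CCAAT on either strand was found in 13 of those 37 windows and in 37.4% of all windows, GGGCGG in 23 of 37 and in 35.7% of all, and TATAAA in 5 of 37 and in 13.6% of all. The Col3a1 window held only TATAAA of these words, whereas the Col1a2, Col4a1 and Col4a2 windows held CCAAT and GGGCGG. Such matches are letters in a window and do not mark bound sites.

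Depth was similar in the 3 samples. The median was 1528316 estimated counts per mESC cell, 1437414 counts per CPCC cell and 1397869 estimated counts per CB cell, and 8, 1 and 9 cells held under 10000 counts. No 2 columns were identical. Pool 2 of CB stood apart from pools 1 and 3. The summed level of 10 fibroblast markers that are not collagens was 6577 CPM (counts scaled to the same total for every library) in pool 1, 215 in pool 2 and 6361 in pool 3, with Dpt at 0 in pool 2. The 10 endothelial markers summed to 54.3, 927 and 17.2 CPM, with Tie1 at 0 in pools 1 and 3. The labels call the CB mature cardiac cells, but the summed level of 12 cardiomyocyte markers was 277, 1171 and 17.7 CPM, Myh6, Ttn, Nppa, Myl2 and Nkx2-5 were at 0 in pool 3, and none of the 12 was detected in most cells of any CB cluster. The endoderm list summed to 200.1, 1652 and 122 CPM in the CB pools. The epithelial list summed to 2559, 954 and 6082 CPM there, the mesothelial list to 519, 78.4 and 1130, and the blood list to 253, 5.48 and 155. The smooth muscle list was at 3406, 953 and 954 CPM and the pluripotency list at 181, 93.2 and 233. In CPCC the fibroblast markers summed to 56.4 CPM in pool 1 and 394 in pool 2, the blood list to 17.1 and 3811, the smooth muscle list to 4052 and 7303, the endoderm list to 84.1 and 364, the pluripotency list to 5693 and 1242 and the epithelial list to 1854 and 535. The part of these markers' cells in the collagen values was not tested, and values are therefore given by pool. In summed counts, a smaller share of cells that make a collagen and less RNA per cell cannot be told apart.

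Collagen transcripts were scarce in mESC and abundant in CB. The 22 chains listed in mESC summed to 71.6 CPM, with a 95% Poisson interval of 70.7 to 72.5. The 38 listed in CPCC summed to 1111 CPM (1107 to 1115) and the 41 listed in CB to 8123 CPM (8113 to 8132), so the sums are over different sets of chains. Intervals cover counting error only, since reads were not collapsed to molecules, and they were far narrower than the spread between pools. The pools gave 65.0, 65.1 and 87.3 CPM in mESC, 458 and 1722 in CPCC, and 11249, 1164 and 13154 in CB. The mESC pools were all below the CPCC pools, but pool 2 of CB was below pool 2 of CPCC, so the CPCC and CB ranges overlapped.

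The make-up of the collagen counts also differed. In mESC the chains outside the fibrillar, basement membrane and beaded classes held 71.5% of collagen counts, and fibrillar chains held 12.5%. Fibrillar chains held 56.7% in CPCC and 73.1% in CB. Basement membrane chains took 7.90%, 21.2% and 8.76% in mESC, CPCC and CB. They reached 47.1% in pool 1 of CPCC and 35.4% in pool 2 of CB, which were the pools with the least collagen of their samples.

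**Figure D1:**
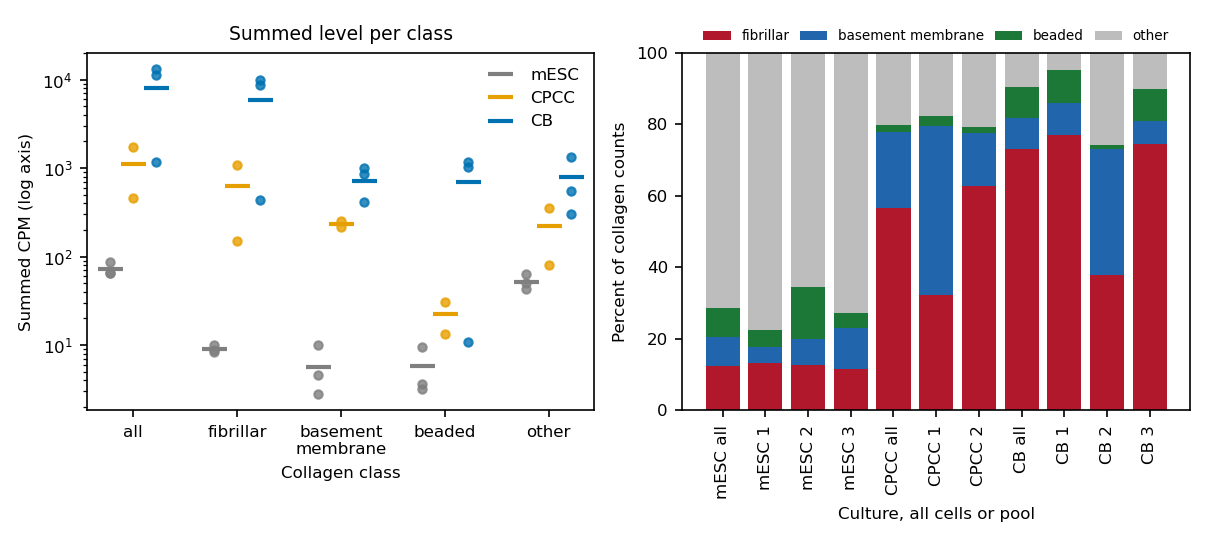
Left, summed CPM (log axis) of all collagen chains and of each class in mESC, CPCC and CB, with 1 point per pool and a dash for the whole sample; right, the percent of collagen counts in each class for the whole samples and their pools. Fibrillar chains take 12.5% of collagen counts in mESC and 73.1% in CB, and the CB pool far below the other CB pools is pool 2.

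Relative to mESC, 7 of the 21 chains listed in both tables were at least 4-fold higher in CPCC on the CPM + 1 scale, against 5.21% of the 20272 genes listed in both, and 1 was at least 4-fold lower, against 1.04%. The median log2 ratio of (CPM + 1) was 0.89 over the chains and -0.02 over all genes. In CB, 16 of 21 chains were at least 4-fold higher than in mESC, against 10.8% of 19855 genes, and 0 were 4-fold lower, against 3.04%. Their median was 4.25 and that of all genes 0.13. Between CB and CPCC, 19 of 36 chains were at least 4-fold higher in CB, against 4.74% of 20995 genes, 0 were 4-fold lower, against 2.0%, and the medians were 2.06 and 0.14. With 10 instead of 1 CPM added, 9 of 21 chains were 4-fold higher in CB than in mESC, against 3.05% of all genes, and 8 of 36 higher in CB than in CPCC, against 0.915%. Without pool 2 of CPCC the median of CPCC against mESC was 0.16, and that of CB against CPCC was 3.13. The comparisons share their samples, so their values are given side by side and not as separate evidence.

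Pools set a stricter reading. Every pool of CPCC was above every pool of mESC for 8 of 21 chains, against 19.0% of all genes, and below for 1, against 19.4%. Every CB pool was above every mESC pool for 15 of 21 chains, against 24.7% of all genes, and below for 0, against 18.1%. Every CB pool was above every CPCC pool for 14 of 36 chains, against 17.9%, and below for 0, against 10.1%. Several of the most abundant chains, Col1a1, Col1a2, Col3a1, Col5a1, Col5a2 and Col6a1, were not among these 14, because CB pool 2 lay within or below the CPCC range.

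**Figure D2:**
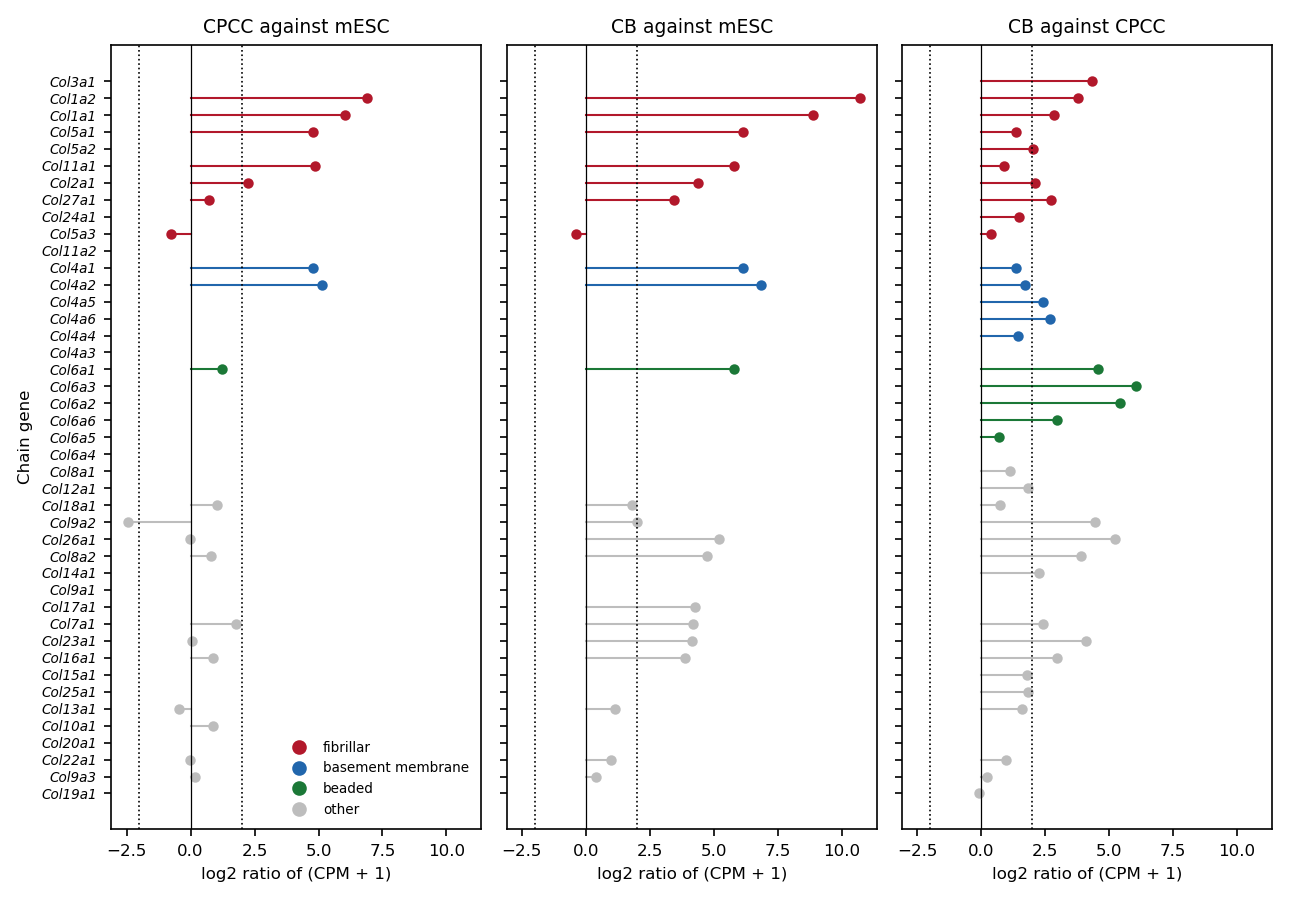
Log2 ratio of (CPM + 1) for each chain listed in both tables of a pair, coloured by class; dotted lines mark 4-fold. In CPCC against mESC the large differences are fibrillar and type IV chains, with Col9a2 the only chain at least 4-fold lower. In CB against CPCC 35 of 36 chains lie above 0, against 12605 of all 20995 genes.

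Per kilobase of transcript, the highest chains of CPCC and CB were fibrillar, Col1a2 at 26.3 CPM per kb in CPCC and Col3a1 at 400 CPM per kb in CB, whereas no fibrillar chain was among the first 3 in mESC. This lead did not hold in every pool. Col4a1 was above Col1a2 in CPCC pool 1, at 134 against 36.9 CPM, also per kilobase. It was above Col3a1 in CB pool 2, at 259 against 151 CPM, again also per kilobase. Col3a1, the chain of type III collagen (chr1:45311538-45349706), was not listed in mESC and was at 14.6 and 197 CPM in the pools of CPCC. In the CB pools Col3a1 stood at 4049, 151 and 3345 CPM. Its level over all CB cells was 2228 CPM against 109 in CPCC, a log2 ratio of 4.34.

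Col1a2, which encodes the α2 chain of type I collagen (chr6:4504814-4541544), was found in 1 of 215 mESC cells. It was at 36.9 and 237 CPM in the CPCC pools and at 2489.6, 57.1 and 3505 CPM in the CB pools. Col1a1, the α1 chain of the same protein (chr11:94936224-94953042), was at 0.913, 0.728 and 1.82 CPM in the mESC pools, at 36.7 and 235 in CPCC, and at 1146, 30.2 and 1826 in CB. For these 3 chains pools 1 and 3 of CB were far above every CPCC pool, whereas pool 2 of CB lay between the CPCC pools in Col3a1 and Col1a2 and below both in Col1a1. Over whole samples the log2 ratios of CB to CPCC were 3.80 for Col1a2 and 2.84 for Col1a1.

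The minor fibrillar chains that join type I fibres differed less between CPCC and CB. Col5a1 went from 3.31 CPM in mESC to 119 in CPCC and 305 in CB. Its partner Col5a2, on chromosome 1 beside Col3a1, was not listed in mESC and was at 4.48 and 132 CPM in the CPCC pools and at 447, 49.8 and 435 in the CB pools. Col11a1 was at 0.350, 38.3 and 72.8 CPM in mESC, CPCC and CB, and 24.6% of its CB counts came from 1 cell. Pool 1 of CPCC was low in each of these chains, and pool 2 of CB was the lowest CB pool in all.

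Col2a1, the chain of cartilage type II collagen, did not follow the other fibrillar chains. It was at 2.60, 1.13 and 1.40 CPM in the mESC pools, 2.34 and 20.6 in the CPCC pools, and 11.5, 98.5 and 32.0 in the CB pools. It was thus highest in the CB pool that was lowest in Col1a1, Col1a2 and Col3a1. Col27a1 reached 13.0 CPM in CB from 0.279 in mESC, while Col24a1 and Col5a3 stayed at or under 2.78 CPM in every sample and Col11a2 was listed only in CB, at 0.648 CPM. Col5a3 was the only fibrillar chain with a ratio below 0 in CB against mESC, a log2 of -0.37.

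The basement membrane class was led by the head-to-head pair. Col4a1 was at 2.54, 2.48 and 8.73 CPM in the mESC pools, 134 and 154 in the CPCC pools and 532, 259 and 405 in the CB pools. Col4a2 was at 0.244, 2.15 and 1.35, then 76.9 and 81.7, then 358, 139 and 337 CPM in the same pools. These 2 chains were ordered mESC, CPCC, CB with no overlap between pools, and the 2 CPCC pools differed less in them than in any fibrillar chain of 10 CPM or more. The log2 ratios of CPCC to mESC were 4.77 and 5.12, and those of CB to CPCC were 1.36 and 1.72. A single CB cell of pool 1 held 15% of the Col4a1 and 15.2% of the Col4a2 counts of the sample, and without it pool 1 fell to 234 and 142 CPM, close to pool 2. First exons of the pair overlap on opposite strands, and the use of strand in counting was not stated, so reads from that stretch cannot be assigned. The same holds for the antisense genes 2810430I11Rik and Gm13372 at Col5a1, for Tcfl5 at Col9a3 and Nt5dc1 at Col10a1, and for Gm47302, which overlaps Col3a1 on its own strand.

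The other type IV chains were lower. Col4a5 was at 4.02 and 16.1 CPM in the CPCC pools and at 77.9, 9.77 and 94.9 in the CB pools. Col4a6, its head-to-head neighbour on the X chromosome with a start 1343 bases away, was at 1.44 CPM in CPCC and 14.8 in CB. Col4a3 and Col4a4, the chains of kidney and lung basement membranes, reached 1.18 and 2.37 CPM in CB, in 6 and 7 cells. None of these 4 was listed in mESC.

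Type VI showed the largest difference between CB and CPCC of any class, with a median log2 ratio of 4.56 over 5 chains. Col6a1 was at 3.16, 9.56 and 3.63 CPM in the mESC pools, 4.72 and 24.5 in the CPCC pools, and 572, 6.29 and 627 in the CB pools. Col6a2 was at 0.435 and 3.70 CPM in CPCC and at 197, 1.45 and 228 in CB. Col6a3 was at 0.435 and 2.54 CPM in CPCC and at 218, 3.10 and 292 in CB. These 3 chains were thus abundant in CB pools 1 and 3 and at a few CPM in pool 2. The higher level of the beaded class in CB rests on pools 1 and 3, since its sum in CB was 1023, 10.8 and 1164 CPM by pool.

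Col6a5, Col6a6 and Col6a4, whose genes lie next to each other on chromosome 9, had their own distribution. Col6a5 was at 7.65 CPM in pool 1 of CPCC and 0.0140 in pool 2, and was detected in 14.3% of CPCC cells. In CB it was at 6.58 CPM in 6 cells, with 63.6% of the counts in 1 cell. Col6a6 reached 7.38 CPM in CB and Col6a4 was found in 1 CPCC cell.

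**Figure D3:**
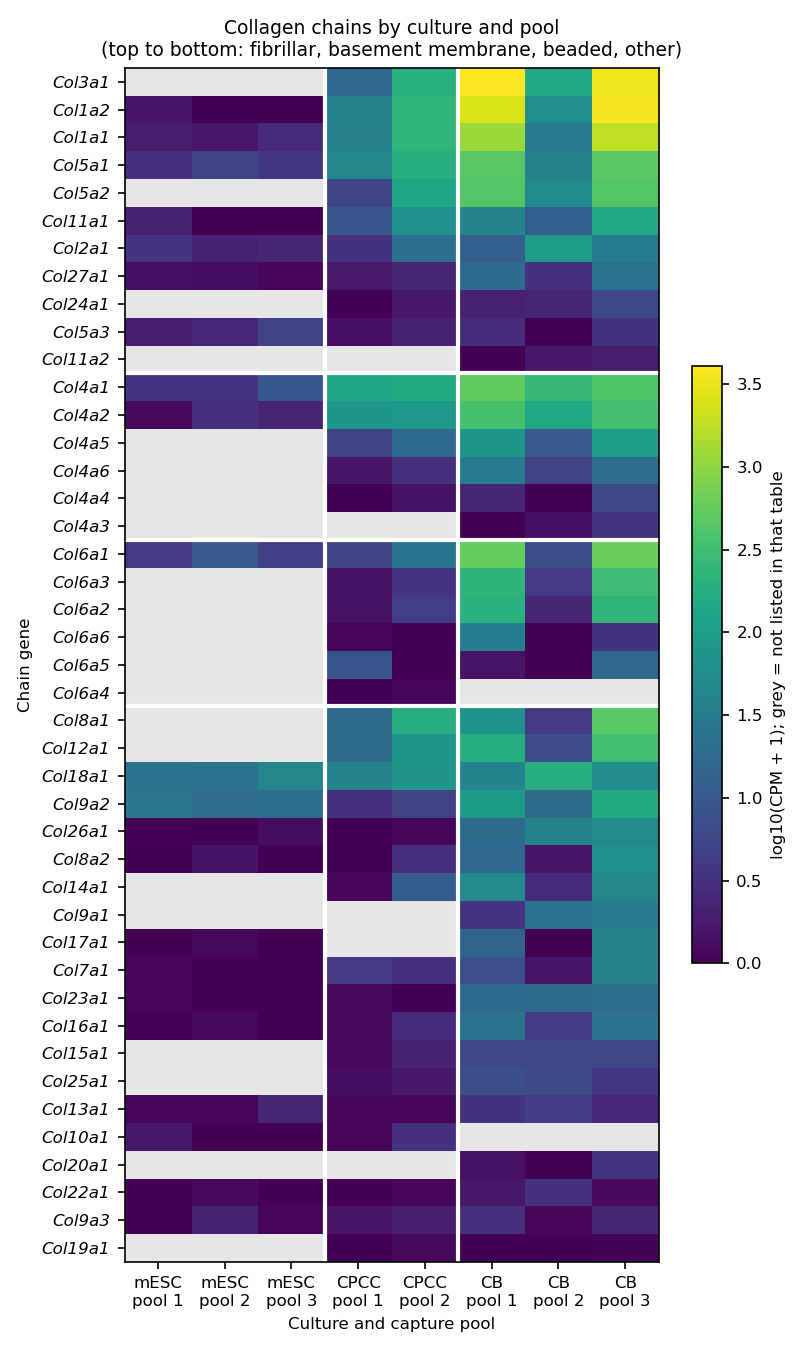
Level of each of the 43 chains, as log10(CPM + 1), in the 8 pools of mESC, CPCC and CB; white lines part the classes and the cultures, and grey means that the chain is not listed in that table. Most chains brighten from left to right, while CB pool 2 is dark for type VI chains and bright for Col18a1 and Col2a1.

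Of the remaining chains, Col18a1 and Col9a2 dominated mESC. Col18a1, whose product sits in basement membranes and carries the endostatin fragment, was detected in 80.5% of mESC cells (Clopper-Pearson interval 74.5 to 85.5%). It was at 22.3, 21.3 and 42.1 CPM in the mESC pools, 39.6 and 75.6 in the CPCC pools and 41.3, 174 and 54.3 in the CB pools. The log2 ratios were 1.04 for CPCC and 1.80 for CB against mESC, the pools overlapped between all cultures, and the share of cells with a count was 81.1% in CPCC and 53.4% in CB. After each cell was thinned to 430000 counts the shares were 77.7%, 79.6% and 51.4% in mESC, CPCC and CB. By CB pool they were 53.6%, 77.5% and 27.7%, so the lower share came from pools 1 and 3, and the share of pool 2 lay within the 72.8 to 88.6% of the mESC and CPCC pools. Of the 98.8 CPM over all CB cells, pools 1 and 3 alone gave 50.3 CPM, which is under the 58.2 of CPCC and above the 27.7 of mESC.

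Col9a2 encodes a chain of type IX collagen, which decorates cartilage fibrils. Over all mESC cells Col9a2 was the highest chain per kilobase, at 7.34 CPM per kb, and was detected in 75.3% of the cells. In mESC pool 3 Col18a1 was the higher per kilobase, from 42.1 CPM over 5.595 kb against 19.4 CPM over 2.924 kb for Col9a2. The level of Col9a2 was 26.7, 18.8 and 19.4 CPM in the mESC pools, 2.02 and 4.22 in the CPCC pools, and 90.7, 16.8 and 156 in the CB pools. It was the only chain lower in every CPCC pool than in every mESC pool, with a log2 ratio of -2.43, and the share of cells was 21.7% in CPCC and 47.8% in CB. Its partners did not share this course. Col9a3 stayed at 0.515, 0.707 and 1.01 CPM, and Col9a1 was listed only in CB, at 2.50, 21.5 and 28.8 CPM in its pools.

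Outside the fibrillar, basement membrane and beaded classes, Col8a1 was the highest CPCC chain per kilobase, at 19.6 CPM per kb, followed by Col18a1 at 10.4 and Col12a1 at 4.20. In CPCC pool 1 the order of the first 2 was reversed, with Col18a1 at 39.6 CPM and Col8a1 at 16.8 CPM. Col8a1, a network-forming collagen of vessel walls and of the eye, was at 16.8 and 178 CPM in the CPCC pools and at 70.5, 3.04 and 483 in the CB pools. Col12a1, which binds to the surface of type I fibres, was at 17.9 and 76.8 CPM in CPCC and at 189.9, 6.18 and 319 in CB. Neither was listed in mESC. Their log2 ratios of CB to CPCC were 1.13 and 1.82, both under 4-fold, and the CPCC and CB pools overlapped.

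A further set was scarce in mESC and CPCC. Col26a1 was at 0.114, 0.0906 and 39.5 CPM in mESC, CPCC and CB, Col23a1 at 0.0541, 0.0870 and 17.5, Col16a1 at 0.0911, 1.03 and 14.9, and Col7a1, the anchoring fibril chain of epithelia, at 0.0456, 2.59 and 17.9. Col26a1 and Col23a1 were present in all 3 CB pools, at 18.1, 39.9 and 48.5 CPM and at 16.0, 16.7 and 19.0 CPM, so their level did not depend on pool 2. Col8a2 reached 30.5 CPM and Col14a1 29.2 CPM in CB, with 0.621 and 1.81 CPM in pool 2. Col17a1, a transmembrane chain of hemidesmosomes, the junctions that fix epithelial cells to their basement membrane, was at 13.6, 0 and 39.7 CPM in the CB pools. The CB levels of Col17a1, Col14a1, Col9a1 and Col7a1 leaned on 1 cell each, which held 48.0%, 45.3%, 39.0% and 38.4% of their counts, and without it they were 10.2, 16.1, 13.0 and 11.1 CPM. Col13a1, Col15a1, Col19a1, Col20a1, Col22a1, Col25a1 and Col10a1 stayed under 5 CPM in every sample, and Col10a1 was listed in mESC and CPCC only. In all, 27 of the 43 chains reached 10 CPM in at least 1 culture.

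Most single CB cells carried many chains. The median number of chains with a count was 3 in mESC cells, 4 in CPCC cells and 12 in CB cells of at least 100000 counts, and 2, 3 and 11 after thinning. By CB pool the medians were 15, 7 and 15. Collagen exceeded 1% of a cell's counts in 0 of 203 mESC cells, 2 of 169 CPCC cells and 66 of 219 CB cells, none of the 66 in pool 2. The most extreme CB cell held 5.56% of its counts in collagen transcripts. Chains detected in more than 50% of cells numbered 2 in mESC, 2 in CPCC and 9 in CB.

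Col1a2 levels in CB cells of pools 1 and 3 lay mostly in a low and a high range. Of the 84 pool 3 cells, 29 held Col1a2 above 0 and up to 10 CPM, 0 between 10 and 100, 10 between 100 and 1000, and 44 above 1000. In pool 1 the numbers were 12, 3, 12 and 34 of 63 cells. In pool 2 there were 2, 13, 13 and 0 of 72 cells, and 44 had no count. The low range of Col1a2 was thus common in the pools that also held cells above 1000 CPM and rare in the pool that did not. Col4a1 had no such gap, with 10, 19, 32 and 8 of the 84 pool 3 cells in the same ranges. The share of CB cells with Col1a2 was 76.3% at 1 count and 61.2% at 5 counts. Whether counts passed between libraries of a pool was not tested.

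The proportions between chains of 1 protein were compared across cultures and pools. The ratio of Col1a1 to Col1a2 per kilobase of transcript was 0.89 in CPCC, with 0.90 and 0.89 in its pools. In CB it was 0.46, with 0.42, 0.48 and 0.47 in the pools, so the CB pools, pool 2 included, all lay near the same ratio and away from CPCC. Within cells of at least 100000 counts the levels of these 2 chains followed each other, with a Spearman correlation of 0.80 over 169 CPCC cells and 0.89 over 219 CB cells. Within CB pools 1, 2 and 3 the value was 0.92, 0.36 and 0.95. Cells of a sample share pools and depth differences, so these values are descriptions. The CPCC table held whole counts and the CB table estimated counts, and the part of that difference in the ratios was not tested.

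The ratio of Col4a1 to Col4a2 per kilobase was 1.77 in CPCC, with 1.70 and 1.84 in its pools, and 1.37 in CB, with 1.45, 1.82 and 1.17, so pool 2 of CB lay within the CPCC range. In CPCC and CB 82.9% and 92.3% of cells with Col4a2 also held Col4a1. The ratio of Col6a1 to Col6a2 was 6.77 in CPCC, with 10.5 and 6.36 in its pools, and 2.69 in CB, with 2.79, 4.16 and 2.64. That of Col6a1 to Col6a3 was 24.2 and 5.58. Of the CB cells with Col6a2, 90.6% also held Col6a1. With the union of all exons as length, the Col6a1 to Col6a2 ratio was 10.3 and 4.10, and the order of the 3 chains was the same. Col5a1 to Col5a2 was 1.33 in CPCC, where it was 7.77 in pool 1 and 1.12 in pool 2, and 0.84 in CB. Col8a1 was 77.1 times Col8a2 in CPCC, where Col8a2 was at 0 in pool 1 and the ratio in pool 2 was 70.8, and 6.10 times in CB, with 3.84, 4.15 and 6.35 in its pools.

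Between chains of different proteins the likeness ranged widely. Col1a2 and Col3a1 had a Spearman correlation of 0.89 over CB cells, with 0.88, 0.62 and 0.87 within pools 1, 2 and 3. Col1a2 and Col6a1 had 0.79, with 0.80, 0.38 and 0.75 within pools. Col1a2 and Col4a1 had 0.24, but 0.20, -0.05 and 0.65 within pools, so they were related in pool 3. Col1a2 and Col18a1 had -0.24. The last value was -0.08, -0.16 and 0.19 within the 3 pools, so it was weaker or opposite within pools.

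**Figure D4:**
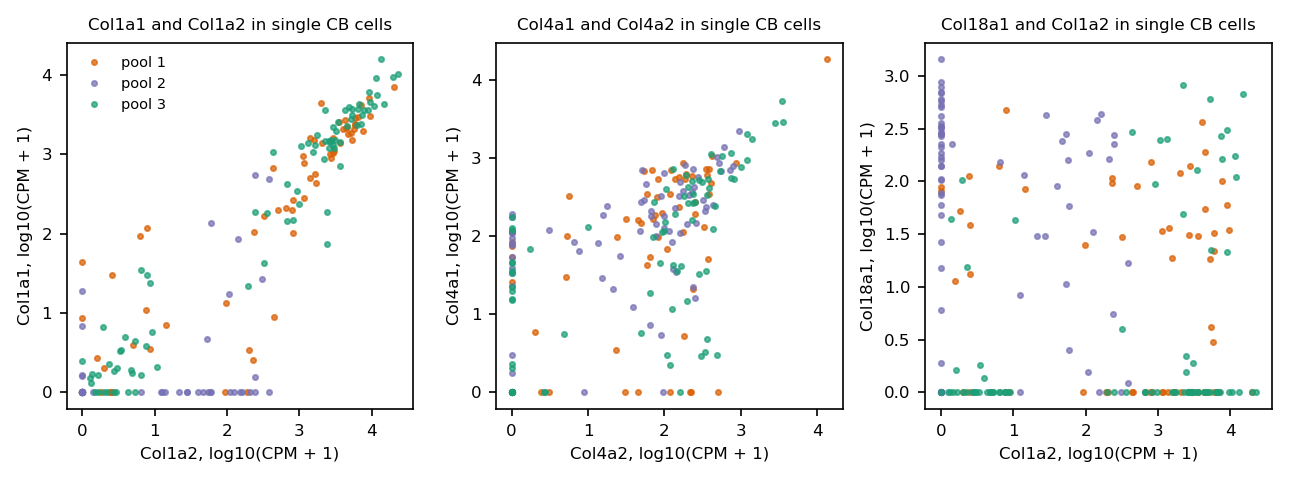
Levels of chain pairs in single CB cells of at least 100000 counts, as log10(CPM + 1), coloured by pool. Col1a1 follows Col1a2 along a line in pools 1 and 3, Col4a1 and Col4a2 form a broader cloud present in all pools, and Col18a1 is highest in pool 2 cells without Col1a2.

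To see which cells held the chains, cells were clustered without any collagen gene. CB cells formed 4 clusters. Cluster 1 (84 cells, led by Lum, Sparc, Bgn, Dcn and Mgp) had 6 of 10 fibroblast markers in most cells. In cluster 2, with 43 cells and Upk1b, Wfdc2 and Anxa1 among its leading genes, 10 of 10 epithelial markers were found in most cells, and mitochondrial genes took 7.85% of the counts, against 5.03 to 5.86% in the other CB clusters. In cluster 3, with 19 cells and Kdr, Ramp2 and Plvap among its leading genes, 10 of 10 endothelial markers were. Cluster 0 (86 cells, led by the proliferation-linked genes Stmn1, H2az1, Hmgb2, Tubb5 and Pclaf) had 3 of 10 epithelial markers, 1 of 7 listed pluripotency markers and no other listed marker in most cells. The cardiomyocyte list summed to 1312 CPM and the endoderm list to 1696 CPM in it, each the highest of the 4 clusters. Clusters and pools were entangled: pool 2 gave 59 cells of cluster 0, all 19 of cluster 3 and 0 of clusters 1 and 2, so cluster 3 can be compared within a pool with cluster 0 only.

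Of the 41 chains listed in CB, 27 had their highest level in cluster 1, against 25.4% of the 24229 genes with a count in CB, and collagen made up 1.95% of all counts there. That cluster held 93.0% of the Col1a2 counts, 92.6% of Col1a1, 89.3% of Col3a1, 91.0% of Col6a1 and 87.7% of Col9a2. Levels there were 5557 CPM for Col3a1, 5125 for Col1a2, 2587 for Col1a1, 952 for Col6a1, 747 for Col5a1 and 551 for Col8a1. Col1a2 had a count in all 84 cells of the cluster. All 3 type VI chains with over 100 CPM in CB were detected in more than 80% of these cells.

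The epithelial marker cluster 2 was the highest for 7 chains, against 20.9% of all genes. It held 99.9% of the Col17a1 counts, which came from 17 of its 43 cells at a summed level of 103 CPM. A single cell held 48.0% of the Col17a1 counts, and without it the level of the cluster was 55.1 CPM. Cluster 2 also held 88.3% of Col4a3, 88.5% of Col4a4 and 92.3% of Col20a1 counts, each from 5 cells or fewer. The highest CB cell of each chain alone held 80.7%, 68.2% and 54.0% of its CB counts. Of the Col4a5 counts cluster 2 held 35.6%, at 110.2 CPM and in 67.4% of its cells. Col4a1 and Col4a2 were low in cluster 2, at 49.0 and 49.5 CPM.

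Col1a1, Col1a2 and Col3a1 were detected in most cluster 2 cells at low level. Col1a2 had a count in 93.0% of them, but the median cell held 2.46 CPM, against 3156 CPM in cluster 1, and 9 of 43 cells exceeded 100 CPM. The summed level was 5.22% of that in cluster 1 for Col1a2, 4.80% for Col1a1, 6.38% for Col3a1, 5.70% for Col5a1 and 4.06% for Col6a1. Without the highest cluster 2 cell of each, the level there went from 268 to 163 CPM for Col1a2, 124 to 63.0 for Col1a1, 354 to 231 for Col3a1 and 38.7 to 21.9 for Col6a1. Among genes that are not collagens the same quantity was 4.91% for Lum, 5.99% for Bgn and 11.3% for Dcn, and over the 10 fibroblast markers it ran from 0.133% for Dpt to 32.4% for Fbln2. A share of cells with a count in cluster 2 is not read as expression of these chains. The part of doublets or of RNA from other cells was not tested.

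The endothelial marker cluster 3 was the highest for 4 chains, against 21.0% of all genes. Col18a1 was detected in all 19 cells, at 467 CPM against 88.2, 68.5 and 16.0 in clusters 0, 1 and 2. Col4a1 was also detected in all 19, at 615 CPM, and Col4a2 at 321 CPM. Within pool 2 the 59 cells of cluster 0 held 95.9 CPM of Col18a1 and 163 of Col4a1, so cluster 3 was also the higher of the 2 inside that pool. Col15a1, a relative of Col18a1, was at 22.5 CPM in 47.4% of the cells. Col1a1 was at 4.36 CPM and the type VI chains Col6a2 and Col6a3 had no count in these 19 cells, which allows a share of cells with a count of up to 15.8% for each (3 of 19 cells) and does not limit the share that expresses them.

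In cluster 0, Col2a1 was at 108 CPM and in 55.8% of cells, and the cluster held 73.8% of the Col2a1 counts of CB. Its levels of Col4a1 and Col4a2 were 317 and 208 CPM, but the pool 1 cell named above lay in this cluster and held 47.3% and 52.2% of these counts. Without that cell they were 169 and 100.2 CPM, still above the 49.0 and 49.5 CPM of cluster 2. It was the highest cluster for Col2a1, Col13a1 and Col22a1 only, 3 of 41 chains, against 32.7% of all genes.

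**Figure D5:**
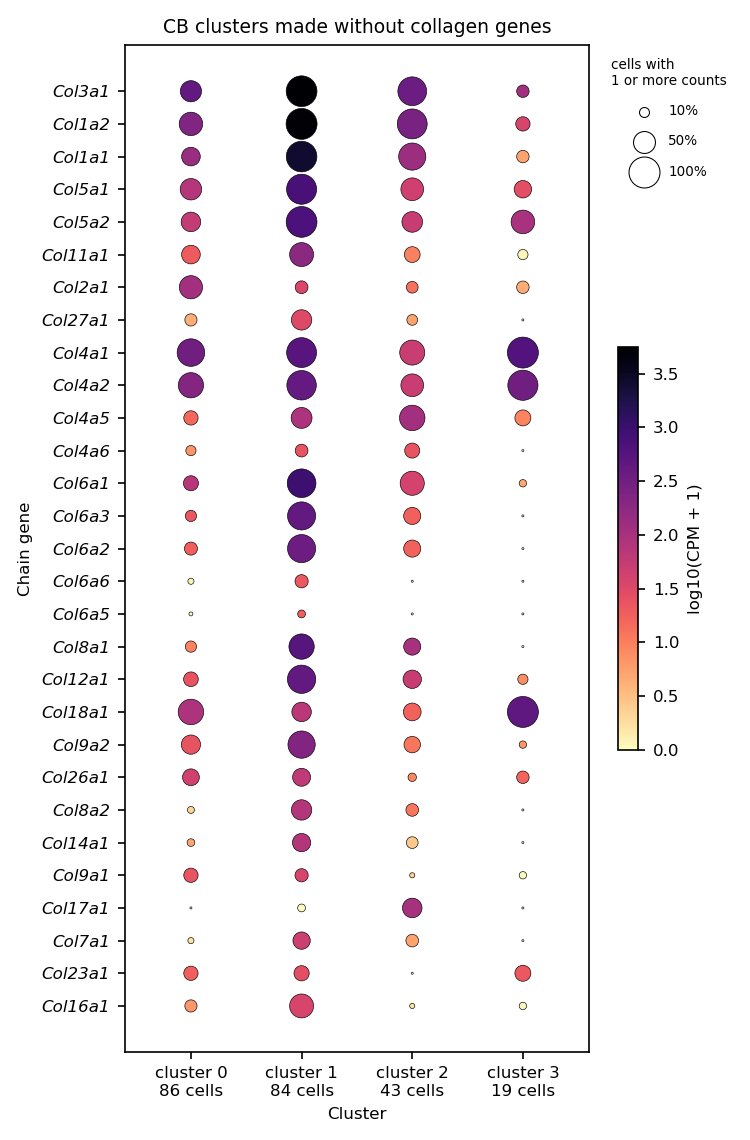
Chains of at least 5 CPM in CB by cluster, where clusters were made without collagen genes; the colour is log10(CPM + 1) over the cells of a cluster and the dot size is the percent of cells with 1 or more counts. Fibrillar and type VI chains are darkest in cluster 1, Col17a1 is seen almost only in cluster 2, Col18a1 and Col4a1 peak in cluster 3, and Col2a1 peaks in cluster 0.

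CPCC cells formed 5 clusters. Cluster 1 (35 cells, led by Acta2, Tagln, Sparc, Bgn and Prss23) was the highest for 27 of the 38 chains, against 20.5% of the 23371 genes with a count in CPCC, and held 91.3% of Col1a2 counts and 94.7% of Col8a1 counts. Both Col8a1 and Col12a1 were detected in all 35 of its cells, at 401 and 171 CPM. The summed level of the type IV pair was highest elsewhere: cluster 2 (31 cells, led by Krt8, Krt18, Acta1 and Gm29216) had 445 CPM of Col4a1 and 237 of Col4a2, against 265 and 140.0 in cluster 1. The share of cells with a count ran the other way, at 71.0% and 64.5% in cluster 2 against 97.1% for both chains in cluster 1, and without the highest cell Col4a1 was at 359 CPM in cluster 2. Mitochondrial genes took 9.76% of the counts of cluster 2, against 3.63% in cluster 1 and 3.47 to 4.68% in the other 3, and the part of that difference in the type IV levels was not tested. Cluster 3 (29 cells, led by Slc2a3, Car4 and Tdgf1) had Col18a1 in all cells, at 140.2 CPM, and at 92.2 CPM without its highest cell, against 67.7 in cluster 1. Cluster 0 (66 cells, led by Dppa5a, Mt1 and Mt2) held little type I or IV collagen but all of the Col6a5 counts of CPCC, in 37.9% of its cells. Of these 66 cells 57 came from pool 1. At a resolution of 0.4 or with 15 principal components clusters 1 and 2 were largely joined, with 337 and 348 CPM of Col4a1 in the joined cluster, and with 15 components that cluster, at 86.2 CPM, was also the highest for Col18a1.

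The 3 mESC clusters were less distinct in collagen. Col9a2 was detected in 69 of 82, 39 of 73 and 54 of 60 cells of clusters 0, 1 and 2, which held mostly pool 1, pools 2 and 3, and pool 2. Their mitochondrial shares were 3.21%, 6.39% and 4.59%.

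The genes around collagen biosynthesis were also mostly higher in CPCC and CB than in mESC, by less than the chains in CB. Of 73 genes on lists for modification and folding, export, processing and crosslinking, receptors and turnover, and regulators, 25 of the 60 with values in both were at least 4-fold higher in CPCC than in mESC and 0 lower, beside the backgrounds of 5.21% and 1.04%. In CB against mESC 35 of 62 were higher and 1 lower, with backgrounds of 10.8% and 3.04%, and in CB against CPCC 8 of 67 were higher and 2 lower, with 4.74% and 2.0%. The last count hung on single pools: 18 genes were higher without CB pool 2 and 2 without CB pool 3, with backgrounds of 5.92% and 3.50%, and 5 without CPCC pool 1 and 22 without CPCC pool 2, with 4.42% and 9.61%. Without CPCC pool 2 the count of CPCC against mESC was 16, with 2.54%. The median log2 ratios were 1.54, 2.41 and 0.53. The lists differed: in CB against mESC, export gave 1 of 9 genes at least 4-fold higher and a median of 0.39, while receptors and turnover gave 10 of 12 and a median of 3.91.

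Of the 20 pathway genes named here, 18 were lowest in pool 2 among the CB pools, and the CB level of 8 was over 1.5 times higher over pools 1 and 3 than over all pools. No share of all genes is given for either count, and these genes were chosen by level and ratio. The counts therefore describe only the named genes. Among modifying enzymes and chaperones, Serpinh1, the collagen-specific chaperone Hsp47, was at 11.3, 105 and 156 CPM in mESC, CPCC and CB. It was at 126 CPM in CB pool 2, against 175 in pools 1 and 3, while the fibrillar chains summed to 440 CPM in pool 2 and to 8675 and 9793 CPM in pools 1 and 3. P4ha2, a prolyl hydroxylase subunit, went from 8.0 to 61.9 and 74.8 CPM, with 85.1, 12.5 and 127 in the CB pools, and Plod2, a lysyl hydroxylase, from 17.0 to 80.0 and 108. P3h4, a partner of collagen-modifying hydroxylases, went from 4.23 to 37.7 and 53.1 CPM. In export, Sec24d of the COPII coat went from 10.8 to 40.9 and 57.8 CPM, while its other members Sec23a and Sec13 were at 70.0, 110 and 123 CPM and at 229.6, 298 and 220.2 CPM. Mia3, a receptor that loads collagen for export, was at 28.2, 43.1 and 57.7 CPM.

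Of the extracellular enzymes, Loxl1 and Loxl2, lysyl oxidases that crosslink collagen and elastin, were at 1.26, 19.1 and 65.1 CPM and at 6.92, 87.1 and 72.3 CPM. Loxl1 was at 95.3, 3.73 and 108 CPM in the CB pools. Tgm2, a transglutaminase, was at 1.82, 13.6 and 81.5 CPM, and at 46.4, 8.03 and 164 in the CB pools. Pcolce2, an enhancer of procollagen C-proteinase, ran the other way, at 63.3, 20.8 and 2.03 CPM, with 2.18, 4.16 and 0 in the CB pools, and was the 1 gene at least 4-fold lower in CB than in mESC. Among receptors and proteases, the collagen receptor kinase Ddr2 was at 0.945, 24.5 and 76.8 CPM, with 79.9, 15.6 and 132 in the CB pools, Mmp2 at 3.29, 154 and 515, and Mmp14, which activates Mmp2, at 1.75, 59.8 and 154. Ctsk, a collagen-degrading protease, was at 94.5 CPM in CB, with 54.2, 5.72 and 194 in its pools, and not listed in CPCC. Of the regulators, the growth factor Tgfb2 was at 0.245, 69.6 and 124 CPM. The transcription factors Runx1 and Cebpb were at 0.419, 26.4 and 75.2 CPM and at 4.51, 36.4 and 148 CPM. In the CB pools Runx1 was at 84.5, 12.5 and 129 CPM and Cebpb at 182, 14.7 and 255. Ccn2, a matricellular protein, was highest in CPCC, at 59.8, 447 and 186, with 219, 29.0 and 315 in the CB pools.

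The genes whose levels were most like those of the chains were sought over 219 CB cells among 9638 genes detected in at least 25% of CB cells, outside the lists used here. For the sum of Col1a1, Col1a2 and Col3a1 they were Bgn, a small proteoglycan (Spearman correlation 0.83), Lgals1 (0.79), Mfap4 (0.79), Mfap2 (0.77), Eln, which encodes elastin (0.76), Selenom, Emp3, Igfbp7, Mgp and Tmem45a. Within pools the Bgn value was 0.71, 0.46 and 0.88. For the sum of Col4a1 and Col4a2 they were Sparc, a collagen-binding matrix protein (0.51), Gng11 (0.47), Nid1 and Hspg2, which encode the basement membrane proteins nidogen-1 and perlecan (0.47 and 0.45), Eva1b, Lgals1, Igfbp4, Ppic, Cd63 and its pseudogene Cd63-ps. The Sparc value was 0.25, 0.64 and 0.70 within pools, and reads of Cd63 and Cd63-ps may not be separable. For the 10 genes of the fibrillar list likeness was lowest within pool 2. Correlations over cells share depth and pool, and are given as descriptions.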

How the data were processed

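The deposited mESC and CB tables hold estimated counts per gene and cell, and the deposited CPCC table holds whole counts. The authors aligned the reads with STAR 2.7 in Partek Flow to the GRCm38 genome with Ensembl annotation. How reads were assigned to genes, and whether strand was used, is not given in the sources used here, and reads were not counted as unique molecules. Values that are not whole made up 28.9% of mESC, 0% of CPCC and 30.8% of CB values above 0. In the CPCC table, 208 rows without a name and 23 with a date in place of a symbol (0.139% of counts), and 2 columns that matched no sample, were left out.

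For each culture and pool the counts of all cells were added up and scaled by the total over genes (CPM). Pairs of cultures were compared by the log2 ratio of (CPM + 1), which understates differences of low genes, with a limit of 4-fold and no test, since there was 1 sample per group. Intervals are 95% Poisson for sums and 95% Clopper-Pearson for shares of cells, and the limit at a count of 0 is 3 cells. A chain was detected in a cell at 1 count, and cells were also thinned to 430000 counts. Levels per kilobase use the transcript with the longest coding sequence. Clusters were made in Seurat 5.3.0 (R 4.3.3) without collagen genes, at resolution 0.6 with 10 principal components and all cells kept, and no doublet caller was run. The ratios were checked on simulated counts with Poisson noise only and no spread between cells or pools. The changes set there were larger than the 4-fold limit, so that check covers the arithmetic alone. edgeR 4.0.16 (TMM) and DESeq2 1.42.0 gave only alternative scaling factors, for which estimated counts were rounded. Tables were handled in Python 3.11.15 with pandas 2.3.3 and SciPy 1.17.1.

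All chains are accounted for, with values for those of at least 10 CPM in any culture. Pathway genes were named by a level of at least 50 CPM and the largest ratio, up to 4 per list, and like genes by the 10 highest correlations per sum. The members and lists were chosen with earlier results of these data known.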

Additional observations from a re-analysis of the deposited data

How the results depend on the processing

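No median ratio of the chains or pathway genes turned its direction under any alternative tried. Of the recomputed medians, counts and sums over all chains or pathway genes, 163 stayed within their interval or within 1.5 times the reported count, and 21 did not. For medians this interval was set by rank over the ratios of single genes. It ran from 0.04 to 4.77 for the chains in CPCC against mESC, so staying within it is a weak check. Of the recomputed values for classes, single chains and clusters, 72 stayed and 53 moved, most of them class sums with cells weighted equally and shares of cells at 5 counts. With 0.1 CPM added in place of 1, 11 chains were at least 4-fold higher in CPCC than in mESC (8.99% of all genes), and the medians against mESC were 2.02 in CPCC and 6.39 in CB. With 10 CPM added, 0 chains were 4-fold lower in CPCC than in mESC (0.187% of all genes) with a median of 0.14, the median of CB against mESC was 1.66 with 9 chains 4-fold higher, the median of CB against CPCC was 1.23 with 8 chains higher, and the pathway medians against mESC were 0.65 in CPCC and 1.34 in CB. At a limit of 2-fold, 29 chains were higher in CB than in CPCC, against 17.0% of all genes. When cells were weighted equally, the chains summed to 76.4, 990.6 and 8211 CPM in mESC, CPCC and CB. At 5 counts, 1 chain was detected in over 50% of CPCC cells.

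When 1 pool was left out at a time, the median of CPCC against mESC ranged from 0.16 to 1.41, with 6 to 7 chains 4-fold higher and 1 lower. The median of CB against mESC ranged from 3.21 to 4.84, with 15 to 16 higher and 0 lower. That of CB against CPCC ranged from 1.54 to 3.13, with 13 to 25 higher and 0 lower. Both 3.13 and 25 came without pool 2 of CPCC, where 9.61% of all genes were 4-fold higher, against 4.74% with all pools. With 1 pool left out, the share of all genes 4-fold higher ran from 2.54 to 7.06% in CPCC against mESC. It ran from 9.62 to 11.6% in CB against mESC and from 3.50 to 9.61% in CB against CPCC. The share 4-fold lower ran from 0.868 to 5.16% over these settings. The pathway genes 4-fold higher ranged from 16 to 30 in CPCC against mESC, 28 to 36 in CB against mESC and 2 to 22 in CB against CPCC, with 0, 1 and 1 to 3 lower. TMM factors moved the median of all genes in CB against CPCC by -0.10 and DESeq2 size factors by -0.11, and 17 chains were then 4-fold higher. No share of all genes is given for these 2 scalings, so that count has no background beside it. The lengths from the union of exons and the values without a top cell, that of Col18a1 over CB pools 1 and 3 and the pathway counts without 1 pool were added after the data were seen. No paired analysis was possible because each culture is 1 sample and the result comes from no test. With 1 sample per culture the spread between cultures grown apart is unknown, and the cause of the differences between pools was not tested.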
